A study of Mus musculus with 6 samples.

Results

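The GABA-A receptor subunit genes Gabra2, Gabra3, Gabra4, Gabra5, Gabrb1, Gabrb2 and Gabrd were followed in ribosome-associated RNA of D2 neurons of the mouse medial prefrontal cortex (mPFC), with and without the kinase GSK3β. The genes were taken by name from a table of FPKM values, in which they made up 7 of 47729 genes and 27 of 115220 transcripts. FPKM counts sequenced fragments per length of transcript and per number of fragments mapped in a library, and the values of a gene's transcripts were added to give its gene total.

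All mice were adult male C57BL/6 mice that carried D2Cre, LSL-Flag-Cas9 and RiboTag alleles. In such mice Cre, driven by a transgenic D2 receptor gene construct, switches on Flag-tagged Cas9 and a hemagglutinin-tagged ribosomal protein Rpl22 in D2 cells, and the tag is used to pull down ribosomes with the RNA bound to them. The 3 Ctrl libraries came from mice injected in the mPFC with AAV GFP, a virus without a guide RNA, and the 3 Gsk3sKO libraries from mice injected with AAV Gsk3 sgRNA/GFP, which carries a guide RNA against Gsk3b. Tissue was collected 3 weeks after injection. The labels do not say whether a library stands for 1 mouse or for pooled tissue, so the p-values below measure the spread between libraries, which may be technical.

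GABA-A receptors are chloride channels that carry most fast inhibition in the cortex, and each channel is a ring of subunits built from α, β and usually γ or δ subunits. The α subunit sets much of the pharmacology, since receptors with α2, α3 or α5 bind benzodiazepines and those with α4 do not. Receptors with α4 and δ lie outside synapses and carry tonic inhibition, and gephyrin, a scaffold protein that GSK3β is known to phosphorylate, holds many of the others at synapses.

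To show how alike the 7 genes are at the level of sequence, the stretch that codes for the disulphide loop from which the Cys-loop receptor family takes its name is given for each, from the first to the last cysteine codon. Each stretch is 45 coding bases long and lies within 1 exon (exon 6 of 10 in Gabra2, Gabra3 and Gabrb2, exon 5 of 9 in Gabra4, Gabrb1 and Gabrd, and exon 7 of 11 in Gabra5). The letters come from the GENCODE M21 transcripts, with GRCm38 coordinates, and capitals mark the 19 bases that are the same in all 7 genes.
Gabra2 (chr5:71012720-71012764, minus strand): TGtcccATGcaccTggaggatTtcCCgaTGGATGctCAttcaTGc
Gabra3 (chrX:72476245-72476289, minus strand): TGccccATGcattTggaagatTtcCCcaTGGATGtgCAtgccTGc
Gabra4 (chr5:71640847-71640891, minus strand): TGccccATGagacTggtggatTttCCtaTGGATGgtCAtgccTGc
Gabra5 (chr7:57452964-57453008, minus strand): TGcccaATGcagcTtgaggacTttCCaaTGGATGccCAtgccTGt
Gabrb1 (chr5:72029846-72029890, plus strand): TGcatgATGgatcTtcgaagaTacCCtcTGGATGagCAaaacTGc
Gabrb2 (chr11:42529431-42529475, plus strand): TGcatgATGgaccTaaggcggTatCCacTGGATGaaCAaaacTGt
Gabrd (chr4:155387877-155387921, minus strand): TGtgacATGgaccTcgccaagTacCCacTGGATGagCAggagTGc

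Over the aligned coding sequence, the closest pair was Gabra2 and Gabra3 with 73.4% of bases the same, followed by Gabra3 and Gabra5 with 72.9% and the β pair Gabrb1 and Gabrb2 with 72.7%. Gabra2 and Gabrd shared the fewest, 57.1%. No pair had an identical coding run longer than 24 bases, which was found between Gabra3 and Gabra5.

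The 6 libraries held between 40787 and 55841 transcripts above 0. The spacing of low FPKM values put their depth at about 23.5 to 45.2 M reads. This is approximate, since 11.1% to 25.7% of low values came within 0.01 of a whole read count. The summed FPKM of a library differed from 385795 to 608528, and the median log2 difference between the groups over all gene totals was -0.06 as deposited, -0.00 after median-ratio scaling and 0.27 after scaling to a common sum (TPM). Among neuron markers, Slc17a7 of excitatory neurons was at 192 to 273 FPKM and Gad1 of inhibitory neurons at 95.7 to 237 FPKM. For Drd2, which defines the labelled cells, the Ctrl libraries held 1.58, 6.02 and 14.1 FPKM and the Gsk3sKO libraries 8.32, 5.96 and 7.28 FPKM. Slc17a7 and Gad1 were thus both present at levels above Drd2. Not all markers of these neurons were, since in Ctrl Rorb of excitatory neurons averaged 2.97 FPKM and Vip of inhibitory neurons 5.93 FPKM, against 7.22 FPKM for Drd2. In tissue of this kind, fewer cells of a type and less RNA per cell cannot be told apart.

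The targeted gene, Gsk3b, had gene totals of 35.6, 53.8 and 56.5 FPKM in Ctrl and 36.9, 37.0 and 33.6 FPKM in Gsk3sKO replicates 1 to 3, and the groups overlapped through Ctrl replicate 1. The log2 difference of the gene total was -0.40 (SE 0.19, limma adjusted p = 0.773). It was -0.05 under TPM scaling, and without Ctrl replicate 1 it was -0.61 and passed the unadjusted threshold (limma adjusted p = 0.705). Its longest coding transcript averaged 34.8 FPKM in Ctrl (SD 1.35, n = 3) and 22.5 FPKM in Gsk3sKO (SD 2.0, n = 3), with no overlap. For this transcript the log2 difference was -0.61, with an unadjusted p of 0.00448 and an adjusted p of 0.619 in limma (Benjamini-Hochberg) and an exact permutation p of 0.1. The other tested coding transcript, ENSMUST00000114750, was not lower by its mean, with 1.85, 18.7 and 20.0 FPKM in Ctrl and 11.9, 15.4 and 12.5 FPKM in Gsk3sKO (log2 difference 0.42, SE 0.78, limma adjusted p = 0.949).

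All 7 subunit genes passed the filter of a mean of at least 1 FPKM. In Ctrl, Gabrb2 had the highest gene total with 48.7 ± 5.36 FPKM (SD, n = 3) and lay above 89.0% of the 12874 gene totals that did so. Gabra5 was lowest with 13.1 ± 4.29 FPKM and lay above 61.7% of them. Gabra3 was at 33.1 ± 3.69 FPKM, Gabra4 at 24.1 ± 6.83, Gabra2 at 20.1 ± 7.70, Gabrd at 18.8 ± 1.67 and Gabrb1 at 18.3 ± 2.11. Of neighbours in this order, only Gabrb2 over Gabra3 and Gabrb1 over Gabra5 held in 3 of 3 Ctrl libraries, while the others changed places from library to library. In Gsk3sKO the order by mean differed in that Gabra2 stood above Gabra4, although in 1 of 3 libraries only.

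**Figure D1:**
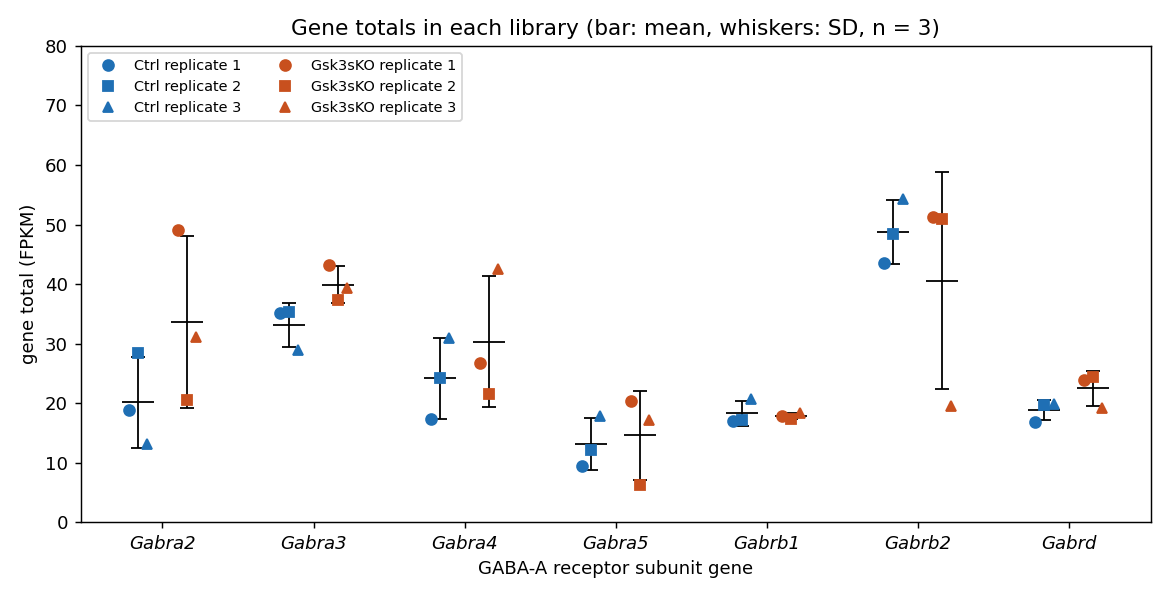
Gene total of each subunit gene in FPKM on a linear axis, with 1 point per library (Ctrl and Gsk3sKO, 3 each) and the group mean with its SD. Gabrb2 and Gabra3 stand highest, and the Gabrb2 value of Gsk3sKO replicate 3 (19.5 FPKM) lies far below the other 5 libraries (43.6 to 54.3 FPKM).

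To ask whether the loss of GSK3β changed the subunits at the level of the gene, log2(FPKM + 1) was compared between Gsk3sKO and Ctrl over all 12874 gene totals with limma. Of the 7 genes, 5 had higher and 2 had lower mean log2 values in Gsk3sKO. None passed an unadjusted p of 0.05 (0 of 7), where 6.56% of all gene totals did (1.36% higher and 5.2% lower in Gsk3sKO). At an adjusted p under 0.05, 0 of 7 were called in limma, and their adjusted p values lay between 0.79 and 0.993, while 6 of all gene totals passed (0.0466%). The 7 log2 differences lay between -0.38 and 0.69 with a median of 0.24, beside a median of -0.06 over all gene totals, of which 41.1% were above 0. The direction of the Gabrb1 difference turned under both other scalings, from -0.03 to 0.03 with median-ratio and 0.32 with TPM scaling. Under TPM scaling the median of the 7 was 0.60 beside 0.27 over all gene totals, and Gabra2 (log2 difference 1.06), Gabra3 (0.63) and Gabrd (0.60) passed the unadjusted threshold, as did 8.54% of all gene totals (6.71% higher in Gsk3sKO). Their adjusted p values in limma under this scaling were 0.388, 0.56 and 0.563.

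**Figure D2:**
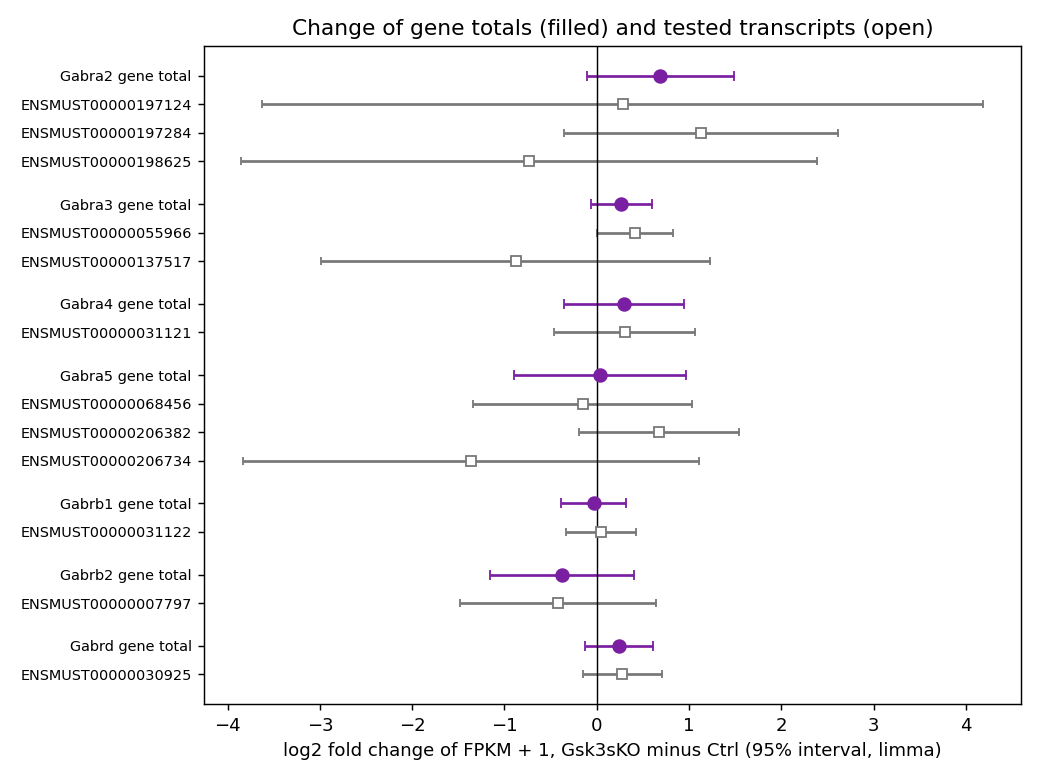
Log2 difference of log2(FPKM + 1), Gsk3sKO minus Ctrl, for the 7 gene totals and their 12 tested transcripts, with 95% intervals from limma. Of the gene totals all intervals include 0, and of the transcripts only that of Gabra3 ENSMUST00000055966 (0.00 to 0.83) starts just above it.

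Among the α subunits, Gabra3 had the tightest values. It codes for α3, a synaptic subunit of benzodiazepine-sensitive receptors, and lies on the X chromosome (chrX:72432681-72656848, minus strand, GRCm38). Its gene total was 35.2, 35.3 and 28.9 FPKM in Ctrl and 43.2, 37.3 and 39.3 FPKM in Gsk3sKO. All 3 Gsk3sKO libraries thus lay above all 3 Ctrl libraries, which held for no other of the 7 gene totals. Over all gene totals 12% (1545 of 12874) did not overlap between the groups (3.71% higher and 8.3% lower in Gsk3sKO). The log2 difference was 0.27 (SE 0.14, 95% interval -0.07 to 0.60), with a limma adjusted p of 0.792, and it was 0.17 without Ctrl replicate 3. By the exact permutation test p was 0.1, the smallest that 3 against 3 libraries allow.

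Most of the Gabra3 signal came from 1 coding transcript of 3662 bases, ENSMUST00000055966. This transcript was at 24.2, 33.1 and 28.5 FPKM in Ctrl and 42.5, 35.7 and 36.5 FPKM in Gsk3sKO. Every Gsk3sKO library was again above every Ctrl library. The group means were 28.6 ± 4.48 and 38.2 ± 3.72 FPKM (SD, n = 3), a log2 difference of 0.41 (SE 0.17, 95% interval 0.00 to 0.83). The unadjusted p of 0.0495 from limma was just under the threshold, the adjusted p was 0.842, and the exact permutation p was 0.1.

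Among the 12 tested transcripts of the 7 genes this was the 1 that passed the unadjusted threshold and the 1 without overlap. Over all 21584 tested transcripts, 5.56% passed (1.81% higher and 3.75% lower in Gsk3sKO) and 11.2% did not overlap (4.28% higher and 6.96% lower). At an adjusted p under 0.05, limma called 0 of all transcripts (0.0%), against 1200 at the unadjusted threshold. The call on the Gabra3 transcript was lost with a variance estimate without a trend (limma adjusted p = 0.88), with no filter on low values (limma adjusted p = 0.742) and with the replicate number as a block (limma adjusted p = 0.901). It was also lost without Ctrl replicate 1 (log2 difference 0.30) or 3 (0.42), and without Gsk3sKO replicate 1 (0.34), 2 (0.46) or 3 (0.44).

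The share of the coding transcript in the Gabra3 total was 68.6%, 93.8% and 98.8% in Ctrl and 98.3%, 95.7% and 93.0% in Gsk3sKO. Ctrl replicate 1 stood apart. There a short processed transcript of 589 bases, ENSMUST00000137517, reached 11.0 FPKM, against 0.357 to 2.39 FPKM in the other 5 libraries. With protein-coding transcripts alone, the Gabra3 gene total had a log2 difference of 0.43 and passed the unadjusted threshold (limma adjusted p = 0.854), as did 5.63% of all gene totals so made.

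Gabra2 had the largest difference between group means and a wide spread. Its product α2 is found at synapses, among them those on the axon initial segment, and the gene lies at chr5:70957597-71095849 (minus strand). Its total was 18.9, 28.4 and 13.1 FPKM in Ctrl and 49.2, 20.5 and 31.2 FPKM in Gsk3sKO, so that Gsk3sKO replicate 2 lay below Ctrl replicate 2. The means were 20.1 ± 7.70 and 33.6 ± 14.5 FPKM (SD, n = 3), and the log2 difference was 0.69 (SE 0.35, 95% interval -0.11 to 1.49). On the linear scale this interval runs from a ratio of 0.927 to 2.81. The exact permutation test gave p = 0.2, but it cannot go below 0.1 with 3 against 3 libraries and so could make no call. In limma the Gabra2 difference was not called (unadjusted p = 0.0822, adjusted p = 0.79). Single libraries moved it past the unadjusted threshold, since without Ctrl replicate 2 the log2 difference was 0.96 (limma adjusted p = 0.973) and without Gsk3sKO replicate 2 it was 0.99 (limma adjusted p = 0.896).

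The Gabra2 total was made up of different transcripts in different libraries. The coding transcript ENSMUST00000197284 held 94.8%, 13.6% and 43.6% of it in Ctrl and 18.9%, 97.6% and 92.8% in Gsk3sKO. A transcript with a retained intron, ENSMUST00000197124, held 56.7% in Ctrl replicate 2 and 53.0% in Gsk3sKO replicate 1 and at most 2.09% elsewhere. ENSMUST00000198625, annotated as a target of nonsense-mediated decay, held 23.6% and 50.8% in Ctrl replicates 2 and 3 and 24.3% in Gsk3sKO replicate 1, and was listed at 0 in the remaining libraries.

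The coding transcript of Gabra2 reached 17.9, 3.87 and 5.71 FPKM in the Ctrl libraries and 9.30, 20.0 and 28.9 FPKM in the Gsk3sKO libraries. The groups overlapped through Ctrl replicate 1, and the log2 difference was 1.13 (SE 0.62, 95% interval -0.36 to 2.62, limma adjusted p = 0.857). It passed the unadjusted threshold without Ctrl replicate 1 (1.70, limma adjusted p = 0.682) and under TPM scaling (1.54, limma adjusted p = 0.726), where 6.39% of all transcripts did (4.28% higher). How reads were divided between these overlapping transcripts is an estimate of the assembler, and its part in the switches between libraries was not tested.

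**Figure D3:**
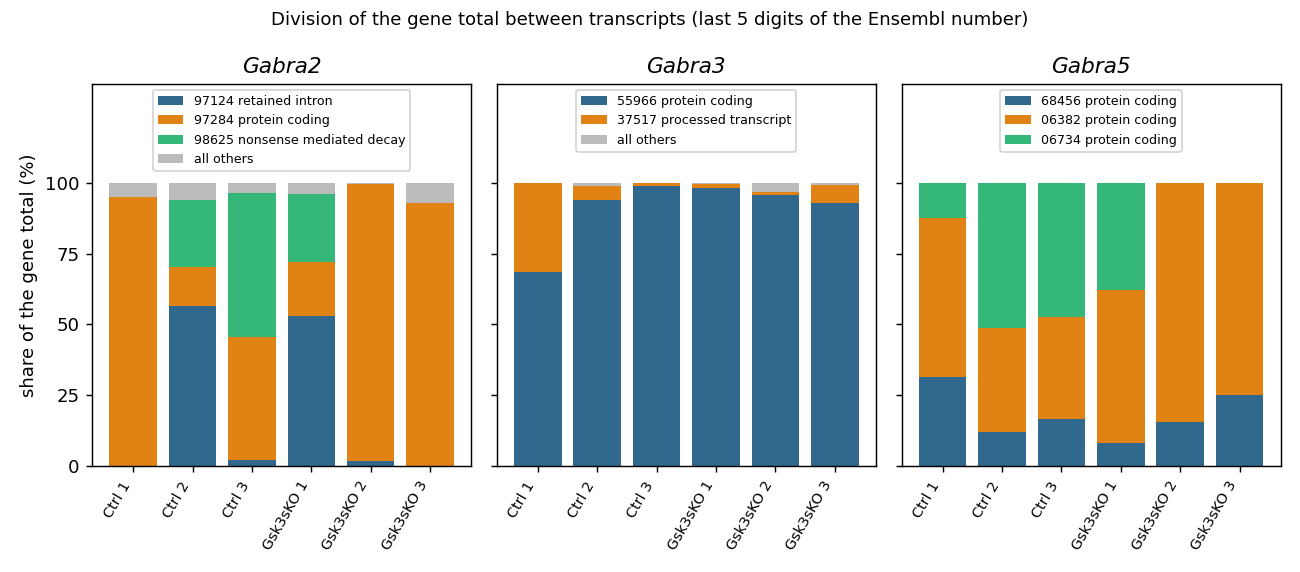
Stacked bars of the percent of the gene total held by each transcript of Gabra2, Gabra3 and Gabra5 in each of the 6 libraries. The coding transcript of Gabra2 goes from 13.6% to 97.6% between libraries, while that of Gabra3 holds at least 93.0% in 5 of the 6.

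Gabra4 codes for α4, the benzodiazepine-insensitive partner of δ, and lies at chr5:71569749-71658308 (minus strand). Its total was 17.3, 24.2 and 30.9 FPKM in Ctrl and 26.8, 21.5 and 42.6 FPKM in Gsk3sKO. Both groups spread widely and overlapped, with a log2 difference of 0.30 (SE 0.28, 95% interval -0.35 to 0.95). The adjusted p from limma was 0.876. Single libraries moved the value. It was 0.09 with Ctrl replicate 1 left out and 0.03 with Gsk3sKO replicate 3 left out, and came to 0.49 or 0.51 when Ctrl replicate 3 or Gsk3sKO replicate 2 was left out. Its transcript ENSMUST00000031121 carried almost the whole total with 23.8 ± 6.70 and 30.1 ± 10.9 FPKM (SD, n = 3), and 1 of its 5 transcripts was listed at 0 in all libraries.

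Gabra5, on chromosome 7 (chr7:57407672-57510059, minus strand), codes for α5, which is known mainly from extrasynaptic receptors of hippocampal and deep cortical pyramidal neurons. The gene total was 9.48, 12.1 and 17.9 FPKM in Ctrl and 20.3, 6.22 and 17.2 FPKM in Gsk3sKO. The highest and the lowest of the 6 values were both in Gsk3sKO. The log2 difference of 0.04 (SE 0.41, limma adjusted p = 0.993) had a 95% interval from -0.90 to 0.97, on the linear scale a ratio of 0.538 to 1.96. These libraries thus left room for nearly a doubling of Gabra5 in either direction. The sign was negative without Ctrl replicate 1 (-0.16) and without Gsk3sKO replicate 1 (-0.26) or 3 (-0.15).

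All 3 annotated Gabra5 transcripts hold the same coding sequence and differ in their untranslated exons. ENSMUST00000206382 was at 5.32, 4.44 and 6.47 FPKM in Ctrl and 10.9, 5.27 and 12.9 FPKM in Gsk3sKO, and Gsk3sKO replicate 2 lay within the Ctrl range. ENSMUST00000206734 was at 1.17, 6.20 and 8.46 FPKM in Ctrl and at 7.70 FPKM in Gsk3sKO replicate 1, and was listed at 0 in Gsk3sKO replicates 2 and 3. The share of ENSMUST00000206382 in the total was 43.0 ± 11.3% in Ctrl and 71.1 ± 15.7% in Gsk3sKO (SD, n = 3), with an exact permutation p of 0.2 that became 0.7 after adjustment over the 8 transcript shares compared. Left-out libraries gave unadjusted calls, in limma, to ENSMUST00000206382 without Gsk3sKO replicate 2 (log2 difference 1.02, adjusted p = 0.853) and to ENSMUST00000206734 without Gsk3sKO replicate 1 (-2.40, adjusted p = 0.512).

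Of the β subunits, which hold the GABA binding site together with α, Gabrb1 (chr5:71658113-72149037, plus strand) lies head to head with Gabra4. Its total was 17.0, 17.2 and 20.8 FPKM in Ctrl and 17.9, 17.3 and 18.3 FPKM in Gsk3sKO, and the Gsk3sKO values lay inside the Ctrl range. The log2 difference was -0.03 (SE 0.15, limma adjusted p = 0.976), and its 95% interval of -0.38 to 0.31 corresponds to a ratio of 0.766 to 1.24. Its coding transcript of 13737 bases, ENSMUST00000031122, was at 17.2 ± 1.55 FPKM in Ctrl and 17.8 ± 0.552 FPKM in Gsk3sKO (SD, n = 3).

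Gabrb2, which codes for the β subunit of the most common cortical receptors, lies at chr11:42419757-42629028 (plus strand). It was at 43.6, 48.4 and 54.3 FPKM in Ctrl and 51.3, 51.0 and 19.5 FPKM in Gsk3sKO. Gsk3sKO replicates 1 and 2 were within the Ctrl range and replicate 3 was far under it. The log2 difference of -0.38 (SE 0.34, 95% interval -1.15 to 0.40, limma adjusted p = 0.872) became 0.07 without Gsk3sKO replicate 3. Its coding transcript ENSMUST00000007797 showed the same single low library, with 40.0, 47.4 and 52.1 FPKM in Ctrl and 50.8, 48.7 and 16.1 FPKM in Gsk3sKO.

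Gabrd codes for δ, the subunit of tonic extrasynaptic receptors, and lies at chr4:155384980-155398112 (minus strand). It was at 16.9, 19.7 and 19.9 FPKM in Ctrl and 23.9, 24.4 and 19.1 FPKM in Gsk3sKO. Gsk3sKO replicates 1 and 2 were above all Ctrl libraries and replicate 3 was between them. The log2 difference was 0.24 (SE 0.16, 95% interval -0.13 to 0.61), with an adjusted p of 0.825 in limma and an exact permutation p of 0.3. Without Gsk3sKO replicate 3, its coding transcript ENSMUST00000030925 had a log2 difference of 0.40 in place of 0.28 and passed the unadjusted threshold (limma adjusted p = 0.916).

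Since subunits share channels, their balance was compared as well. The summed FPKM of the 7 genes was 158, 185 and 186 in Ctrl and 233, 178 and 187 in Gsk3sKO. Those of the 4 α genes were 80.9, 99.95 and 90.8 in Ctrl and 140, 85.5 and 130 in Gsk3sKO, and those of the β pair 60.6, 65.6 and 75.0 in Ctrl and 69.2, 68.2 and 37.8 in Gsk3sKO. The α sum thus spread over a wider range in Gsk3sKO than in Ctrl, and so did the β sum. Gabrd took a nearly fixed share of the 7-gene sum in Ctrl, 10.7%, 10.6% and 10.7%, against 10.3%, 13.7% and 10.2% in Gsk3sKO. Gabrb2 went from 27.6 ± 1.56% in Ctrl to 20.4 ± 9.22% in Gsk3sKO (SD, n = 3), with an exact permutation p of 0.3 and 0.7 after adjustment over the 7 shares.

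The ratio of Gabrb2 to Gabrb1 was 2.57, 2.80 and 2.61 in Ctrl and 2.87, 2.95 and 1.07 in Gsk3sKO. In 5 of the 6 libraries it kept to a narrow band, and Gsk3sKO replicate 3 fell outside it. The ratio of Gabra4 to Gabrd, the partners of tonic receptors, was less even, with 1.02, 1.23 and 1.56 in Ctrl and 1.12, 0.880 and 2.23 in Gsk3sKO. Gabra2 to Gabra4 gave 1.09, 1.17 and 0.424 in Ctrl and 1.83, 0.952 and 0.732 in Gsk3sKO. Exact permutation tests on the log2 ratios gave p of 1.0, 0.9 and 0.6 in this order, and 1.0 for each after adjustment over the 3.

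**Figure D4:**
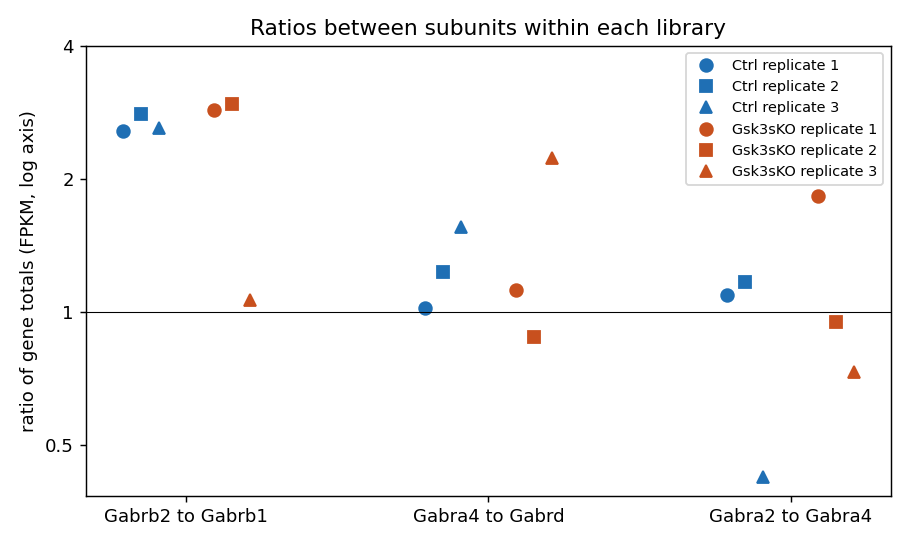
Ratios of gene totals in each library on a log axis (Gabrb2 to Gabrb1, Gabra4 to Gabrd, Gabra2 to Gabra4), with 1 point per library by group. Gabrb2 to Gabrb1 lies between 2.57 and 2.95 in 5 libraries and at 1.07 in Gsk3sKO replicate 3.

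Around the shared start region of Gabra4 and Gabrb1 on chromosome 5, a short Gabrb1 transcript of 799 bases reaches into Gabra4. This transcript, ENSMUST00000199967, starts 41819 bases upstream of the start of ENSMUST00000031122, and the annotated genes overlap by 196 bases (chr5:71658113-71658308) within the first exon of Gabra4. Exons of the transcript and of Gabra4 ENSMUST00000031121 overlap by 46 bases on opposite strands. To show the sequence in front of both genes, bases from 250-base windows upstream of RefSeq starts (GRCm38.p6) are given for Gabra4, cut to 195 bases to leave out exons of Gabrb1, and for the downstream Gabrb1 start. Capitals mark CpG dinucleotides.
Gabra4 (chr5:71658364-71658558, minus strand): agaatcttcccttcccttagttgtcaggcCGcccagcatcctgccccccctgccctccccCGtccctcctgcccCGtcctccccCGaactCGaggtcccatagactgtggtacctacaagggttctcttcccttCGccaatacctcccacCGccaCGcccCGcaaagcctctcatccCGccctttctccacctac
Gabrb1 (chr5:71699682-71699931, plus strand): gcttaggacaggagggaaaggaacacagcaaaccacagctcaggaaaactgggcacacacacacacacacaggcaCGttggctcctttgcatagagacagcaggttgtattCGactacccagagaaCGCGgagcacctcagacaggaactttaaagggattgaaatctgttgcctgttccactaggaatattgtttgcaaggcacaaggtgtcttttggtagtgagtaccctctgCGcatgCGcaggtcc

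The Gabra4 stretch of 195 bases holds 10 CpG and 63.6% G and C, and its full window of 250 bases 12 CpG and 61.2%. The downstream Gabrb1 window holds 6 CpG and 50.8%. Over all 32851 windows of 250 bases the medians were 6 CpG and 52.4%. The window before the upstream RefSeq start of Gabrb1 (chr5:71657671-71657920) has 18 CpG and 64.4%. It does not abut the annotated start of ENSMUST00000199967 at chr5:71658113. The Gabra2 window also has 18 CpG with 70.0% G and C, while both Gabra3 windows have 0 CpG. Those of Gabra3 (from chrX:72656808) likewise do not abut the start of ENSMUST00000055966 (chrX:72656186). The letters TATAAA, searched on both strands, occur in both Gabra3 windows, which overlap, and in 1 of 3 Gabrb2 windows, and in 12.4% of all windows. No other window of the 7 genes holds them, and Gabrd was not among the windows used.

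The upstream-start transcript of Gabrb1, named after its values were seen, was at 0.864, 0.755 and 1.79 FPKM in Ctrl. In Gsk3sKO it was listed at 0 in replicates 1 and 3 and was at 0.0810 FPKM in replicate 2. All Gsk3sKO libraries were below all Ctrl libraries, and the values stood for about 31, 19 and 34 reads in Ctrl and 0, 2 and 0 in Gsk3sKO. Its mean of 0.581 FPKM over the 6 libraries was under the filter of 1 FPKM. Without a filter the log2 difference was -1.03 (SE 0.36), with an unadjusted p of 0.0296 and an adjusted p of 0.742 in limma, and the exact permutation p was 0.1. Of the 26 subunit transcripts fitted without a filter it was the 1 that passed the unadjusted threshold, where 2.75% of all 69611 transcripts fitted did so (1.99% lower in Gsk3sKO). Without overlap and lower in Gsk3sKO were 5.14% of them, so that 1 of 26 is near the background. The kit was stranded but the strand setting of the assembly is not given, so reads of this transcript and of Gabra4 in the overlap cannot be told apart. The transcript also ends at chr5:72108779, inside the span of ENSMUST00000031122. How reads were divided between these Gabrb1 transcripts was not tested.

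**Figure D5:**
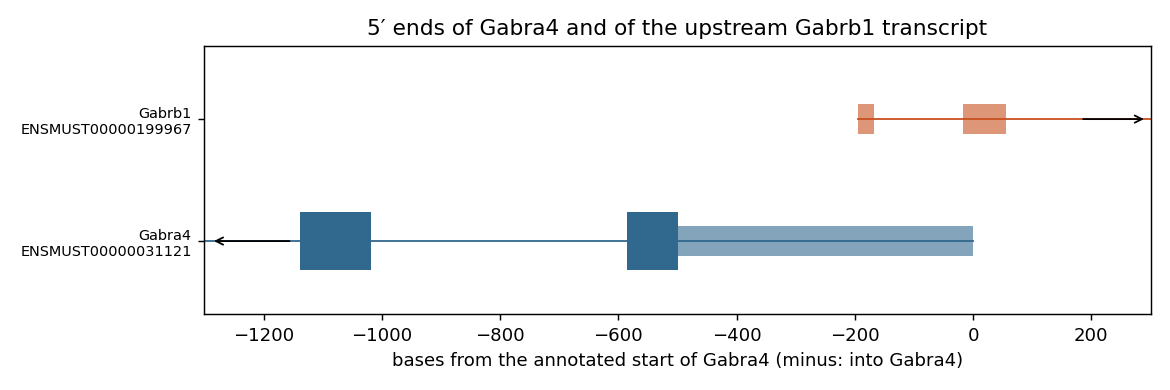
Map of the start of Gabra4 ENSMUST00000031121 and of Gabrb1 ENSMUST00000199967, in bases from the annotated Gabra4 start, where tall boxes are coding exons, low boxes untranslated exons, and arrows give the direction of transcription. The Gabrb1 transcript begins inside the first exon of Gabra4, runs the other way, and shares 46 exon bases with it.

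The other 14 of the 15 transcripts under the filter had mean values from 0.0 to 0.949 FPKM. They belonged to Gabra2 (3), Gabra3 (1), Gabra4 (4), Gabrb2 (4) and Gabrd (2), and none passed the unadjusted threshold when fitted without a filter in limma.

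The genes whose centred log2 values over the 6 libraries lay closest to each subunit gene were named by the root mean square (RMS) difference, as a description. Gabrb1 was nearest to Tln2 (RMS difference 0.0258) and Ppp2r5e (0.0386), Gabrd to Shank2 (0.0423) and Gatad1 (0.0454), and Gabra3 to Dusp6 (0.0486) and Gm2810 (0.0562). For Gabra4 they were Actr6 (0.0508) and Pde7b (0.0573), and for Gabrb2 Unk (0.0566) and Mrpl37 (0.0820). Gabra5, with Gm9843 (0.130) and Gm6781 (0.143), and Gabra2, with Gm13166 (0.199) and 3110056K07Rik (0.214), had no gene as close in absolute terms. Both also varied most over the libraries, with an RMS deviation of 0.547 (Gabra5) and 0.581 (Gabra2), against 0.0928 for Gabrb1. The RMS difference was not scaled to this deviation.

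Around the receptor, genes of GABA synthesis, uptake and breakdown had 0 of 7 tested called at the unadjusted threshold and a median log2 difference of 0.11. Gad1 and Gad2, which make GABA, had log2 differences of 0.04 and 0.27, and Slc32a1, which loads it into vesicles, 0.11. Gad1 spread from 95.7 to 237 FPKM within Ctrl alone. The 12 other GABA-A receptor subunit genes of the table had 5 tested gene totals, 0 called, a median log2 difference of 0.27, and 4 genes listed at 0 in all libraries.

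Of 22 tested genes of receptor assembly and traffic, 0 were higher and 1 was lower, with a median log2 difference of -0.02. The lower gene was Gabarapl2, of the family of autophagy proteins that includes the GABA-A receptor-associated protein. It was at 58.7, 61.3 and 59.2 FPKM in Ctrl and 52.5, 39.7 and 39.9 FPKM in Gsk3sKO, without overlap. The log2 difference was -0.44 (SE 0.15), with an adjusted p of 0.688 in limma. Its p was above 0.05 without Ctrl replicate 2 (log2 difference -0.42) or Gsk3sKO replicate 2 (-0.38) and under TPM scaling (-0.09).

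For scaffold and adhesion proteins of inhibitory synapses the counts were 0 higher and 1 lower of 15 tested, with a median of -0.15. Gphn, which codes for gephyrin, was at 15.6, 17.4 and 19.3 FPKM in Ctrl and 19.4, 17.0 and 18.2 FPKM in Gsk3sKO, a log2 difference of 0.06 (SE 0.16, limma adjusted p = 0.956). Nrxn2, a presynaptic adhesion protein, was the lower gene, with 55.4, 55.1 and 54.8 FPKM in Ctrl and 46.0, 47.2 and 39.2 FPKM in Gsk3sKO. The Nrxn2 log2 difference of -0.32 (limma adjusted p = 0.75) was 0.04 under TPM scaling. Its unadjusted p was above 0.05 in 5 of the 6 fits that left out 1 library, the exception being that without Gsk3sKO replicate 2, with log2 differences from -0.35 to -0.24 in those 5. The call was also lost with the replicate block, with median-ratio scaling, without a trend and with coding transcripts alone (limma adjusted p = 0.792, 0.795, 0.811 and 0.854).

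Among 15 tested kinases and phosphatases that act on GABA-A receptors, 1 was higher and 0 were lower, with a median of 0.07. The higher gene was Ppp3cb, a catalytic subunit of the phosphatase calcineurin, with 50.9, 42.9 and 91.4 FPKM in Ctrl and 98.8, 99.8 and 102 FPKM in Gsk3sKO. Its log2 difference was 0.76 (SE 0.25, limma adjusted p = 0.688), and the unadjusted p was above 0.05 without Ctrl replicate 1 (0.67) or 2 (0.54) and with an ordinary linear model. GABA-B receptor genes had 0 of 5 called and a median of -0.02, with Gabbr1 at -0.08 and Gabbr2 at 0.06. Chloride transport genes had 0 of 10 called and a median of 0.07, with the importer Slc12a2 at 0.15 and the exporter Slc12a5 at 0.06. Each of these lists thus had at most 1 called gene, beside 6.56% of all gene totals.

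Markers of other cells were followed in the same gene totals, of which 5.2% were lower in Gsk3sKO at the unadjusted threshold. No marker passed an adjusted p of 0.05 in limma, and those called had adjusted p values from 0.607 (Mog) to 0.732 (Cldn11). Inhibitory neuron markers had 0 of 15 called, and their summed FPKM was 1624 to 2094 in Ctrl and 1539 to 1642 in Gsk3sKO. Most of these sums came from Sst (mean 822 FPKM in Ctrl, 694 in Gsk3sKO) and Cck (470 and 395). The median log2 difference of the list was 0.04. Excitatory neuron markers had 2 of 13 lower (Tbr1 and Cux2), with sums of 982 to 1132 in Ctrl and 942 to 1145 in Gsk3sKO. The largest part of these was Camk2a (mean 542 FPKM in Ctrl, 592 in Gsk3sKO). Of oligodendrocyte markers 4 of 9 were lower (Mog, Mag, Cnp and Cldn11), with sums of 131 to 200 and 136 to 175, and Mog was listed at 0 in Gsk3sKO replicates 2 and 3.

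Of microglia markers 2 of 8 were lower (C1qa and C1qb, limma adjusted p = 0.688 for each), beside 5.2% of all gene totals. Their sums were 42.2 to 53.9 FPKM in Ctrl and 31.4 to 41.3 FPKM in Gsk3sKO, taken over the whole list. Astrocyte and endothelial markers had 0 of 10 called each, with sums of 185 to 232 and 192 to 240 FPKM for astrocytes and of 22.1 to 90.1 and 28.9 to 82.7 FPKM for endothelial cells. Dopaminoceptive neuron markers had 0 of 10 called, a median log2 difference of 0.30 and sums of 166 to 441 and 225 to 411 FPKM, with Adora2a listed at 0 in Ctrl replicate 1. The part of these cell types in the subunit values was not tested.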

How the data were processed

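The authors deposited FPKM values per transcript for the 6 libraries, together with fold, p-value and q-value columns of their own comparison, which were not used here. Per the submitters' processing notes, HISAT2 2.1.0, SAMtools 1.9, StringTie 1.3.4d and the GRCm38 build were used. Their settings, strand included, are unstated in the sources used here. Every library column was used (0 left out). No read counts were used, and dividing reads among overlapping transcripts is an estimate.

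FPKM were summed by gene and tested as log2(FPKM + 1) for features with a mean of at least 1 FPKM over the 6 libraries, with limma 3.58.1 in R 4.3.3 (lmFit, eBayes with a trend, no covariates, two-sided, Benjamini-Hochberg over all features tested). The pseudocount of 1 understates fold changes of low values. A feature was called at an unadjusted p under 0.05. Shares, ratios and single values were compared with two-sided exact permutation tests over the libraries. The fit was tested on simulated data. Annotation was GENCODE M21, which held 114332 of the 115220 transcripts (888 were not found), and promoter windows came from RefSeq. Python 3.11.15, numpy 2.4.6, pandas 2.3.3 and matplotlib 3.10.9 were used. Alternatives were other pseudocounts, filters, scalings and variance estimates, a replicate block, coding transcripts alone and each library left out.

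The named genes are the 7 genes and their transcripts above the filter, Gsk3b, the called genes of each pathway list, 8 set genes of GABA signalling and, per member, the 2 gene totals closest in profile. Members and lists were chosen with earlier results of these data known. Called genes of the marker lists and the upstream-start transcript of Gabrb1 were added after their values were seen.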

Additional observations from a re-analysis of the deposited data

How the results depend on the processing

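The causes of the changes below were not tested. The number of gene totals called at the unadjusted threshold was 844, with 574 to 1175 when 1 library was left out. Of the 844, 20.7% were higher in Gsk3sKO, against 37.8% of 809 with median-ratio scaling and 78.5% of 1100 with TPM scaling. For transcripts the count was 1200, with 894 to 1733 when 1 library was left out, 1917 without a filter and 590 with a mean of at least 5 FPKM. With TPM scaling the log2 differences of Gabrb1 (0.32), Gabbr1 (0.28), Nrxn2 (0.040) and Gabra5 ENSMUST00000068456 (0.085) changed sign, as did that of Gabrb1 with median-ratio scaling (0.028). Gabra2 (1.06), Gabra3 (0.63) and Gabrd (0.60) passed the unadjusted threshold with TPM scaling, and Gabra3 (0.43) with coding transcripts alone.

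The values gave no sign that the replicate numbers pair the libraries. Deviations from the group means of same-numbered libraries correlated at -0.0274, -0.0108 and -0.0809, which with 3 libraries per group cannot exclude a pairing. With the replicate number as a block, 821 gene totals and 1103 transcripts were called, 0 of 7 subunit gene totals and 0 of 12 subunit transcripts among them, and no library correlated best with its own number.

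Leaving out 1 library turned the sign of several log2 differences of gene totals, which then ranged from -0.26 to 0.52 (Gabra5), -0.084 to 0.054 (Gabrb1), -0.60 to 0.074 (Gabrb2), -0.26 to 0.39 (Gad1), -0.063 to 0.21 (Slc32a1), -0.18 to 0.020 (Gabbr1), -0.0072 to 0.15 (Gabbr2), -0.28 to 0.30 (Slc12a5) and -0.015 to 0.13 (Gphn). The Gabra2 and Gabra4 values kept their sign, from 0.38 to 0.99 and from 0.029 to 0.51. So did those of Gabra3, from 0.17 to 0.31, and Gabrd, from 0.17 to 0.35. For transcripts the ranges were -1.22 to 1.59 (Gabra2 ENSMUST00000197124), -1.57 to 0.0038 (Gabra3 ENSMUST00000137517), -0.56 to 0.16 (Gabra5 ENSMUST00000068456) and -0.70 to 0.10 (Gabrb2 ENSMUST00000007797). The log2 ratio differences ranged from -0.33 to 0.34 (Gabra4 to Gabrd), -0.062 to 0.70 (Gabra2 to Gabra4) and -0.60 to 0.13 (Gabrb2 to Gabrb1). Differences of shares in the 7-gene sum ranged, in percentage points, from -0.481 to 2.86 (Gabra3), -1.75 to 3.87 (Gabra4), -1.26 to 1.59 (Gabra5) and -0.412 to 1.34 (Gabrd), and those of transcript shares from -18.6 to 17.3 (ENSMUST00000197124), -0.628 to 14.4 (ENSMUST00000055966) and -8.16 to 2.06 (ENSMUST00000068456).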
